A study of Homo sapiens with 15 samples.

Results

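The HOX clusters were examined in RNA sequencing of SW480, a human cell line from a colorectal cancer, labelled as intestinal epithelium. Members were every entry of the gene table named HOXA, HOXB, HOXC or HOXD followed by a number or by an antisense suffix, together with HOTAIR, HOTAIRM1 and HOTTIP. This gave 57 of 57905 entries and 56 symbols, because HOXC4 is listed under 2 Ensembl genes, of which the entry with the higher mean was kept. Of the 56 members, 39 are coding and 17 noncoding. The HOXA cluster on chromosome 7 has 11 coding and 6 noncoding members, HOXB on chromosome 17 has 10 and 4, HOXC on chromosome 12 has 9 and 5, and HOXD on chromosome 2 has 9 and 2.

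Compared here were 4 groups of 3 libraries. The labels list 6 PINT shRNA1 samples for 3 RNA numbers, and each number has 1 column of values, taken here as 1 library. Which of the 2 samples of a number its column holds, or both, is not recorded. Control was SW480 without treatment in its label, for which the protocol names PBS, the vehicle. LPS was the same line given lipopolysaccharide, the bacterial cell wall component that activates toll-like receptor signalling, at 1 µg/ml for 4 h. PINT shRNA1 was SW480 given a lentiviral vector with a short hairpin RNA aimed at the long noncoding RNA PINT, and PINT shRNA1+LPS had that hairpin and the same LPS exposure. No library with a non-targeting hairpin is among the samples, so effects of the target and of the viral vector cannot be told apart. Nothing in the labels says that replicates were separate cultures, so the spread behind each p-value may be technical.

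HOX genes encode homeodomain transcription factors that give cells along the body axis their position. They stand in 4 clusters, and genes at the paralog 1 end are typically used in anterior tissue while genes at the paralog 13 end are used in posterior tissue such as the hindgut. Silent HOX chromatin is a textbook target of the Polycomb complexes, and active HOX chromatin of the MLL methyltransferases. Long noncoding RNAs are transcribed between and across the HOX genes, and PINT itself has been described as a partner of Polycomb repressive complex 2.

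The table lists PINT as LINC-PINT. It stood at 2.88, 2.56 and 2.51 FPKM (fragments scaled to transcript length and to the number of mapped fragments) in Control and 2.4, 2.82 and 1.91 in LPS. The libraries labelled PINT shRNA1 held 4.55, 5.26 and 5.34, and with LPS added to that label 3.54, 4 and 4.08. The targeted RNA was therefore higher, not lower, in every hairpin-labelled library, and the group names below are labels only, with no direction read as an effect of less PINT. FPKM gives no absolute depth. Estimated from the steps between low values, with Control replicate 1 as 1, depth was 0.809 to 1.05 in the first 3 groups and 1.3 to 1.51 in PINT shRNA1+LPS. Genes above 0 numbered 27078 to 28430 without the hairpin label and 30725 to 31961 with it. All 7 epithelial markers (EPCAM, KRT8, KRT18, KRT19, CDH1, VIL1 and CDX2) were above 0 in all groups, but their summed level was 2342.6 to 2667.1 FPKM in Control and 2363.2 to 2406.5 in LPS. With the hairpin label it was 1440.8 to 1535.6, and 1546.5 to 1606.4 with LPS as well. This sum is mostly KRT8, KRT18, KRT19 and EPCAM, which were called lower in both hairpin comparisons, as was VIL1. CDX2 was called higher in both and CDH1 in neither. Summed markers of leukocytes (6 genes) stayed between 2.53 and 4.39 FPKM, of fibroblasts (6 genes) between 0.495 and 1.32, and of endothelium (3 genes) between 0.181 and 0.322. The highest single markers were LYZ of leukocytes, up to 2.83 FPKM, COL1A1 of fibroblasts, up to 1.18, and VWF of endothelium, up to 0.322. PTPRC, DCN and CDH5, at most 0.0713, 0.0216 and 0.0268, were at 0 in most libraries. CD14 was called lower in LPS against Control, at -0.64 ± 0.139 (limma, adjusted p = 0.0371), and higher in PINT shRNA1+LPS against LPS, at 0.61 ± 0.139 (adjusted p = 0.00778). Both of these comparisons use the same LPS libraries. The part of the differences in epithelial markers and CD14 and of the number of genes above 0 in the results below was not tested. In bulk RNA, fewer cells of a type and less RNA per cell cannot be told apart.

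SW480 expressed members of all 4 clusters, and the HOXB cluster carried most of the signal. Summed over its members, HOXB gave 320.6 ± 10.1 FPKM in Control (SD, n = 3, as for all means below), which was 60.8% of all HOX FPKM. HOXA followed with 143.4 ± 8.98 (27.2%), HOXC with 44.7 ± 2.65 (8.49%) and HOXD with 18.2 ± 0.602 (3.46%). The most abundant single members in Control were HOXB8 (62.2 ± 3.08), HOXB3 (59.6 ± 0.312), HOXB6 (49.7 ± 2.58) and HOXB7 (44.5 ± 0.791), then HOXA9 (33.7 ± 5.29). HOXB8 and HOXB3 were within 1 SD of HOXB8 of each other, and HOXA9 overlapped the antisense RNA HOXB-AS3 (30.3 ± 1.72), which was the most abundant noncoding member. The other abundant noncoding members were HOTAIRM1 (22.1 ± 2.3), HOXA10-AS (11.4 ± 0.725) and HOTAIR (10.02 ± 0.54). FPKM is per length, so these levels can be set beside each other, within the limits of exons that genes share.

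The order of the clusters by summed level was the same in all 4 groups. HOXA summed to 134.8 ± 10.6 FPKM in LPS, to 155.5 ± 10.9 with the hairpin label and to 146.2 ± 4.68 with both. HOXB summed to 304.6 ± 12.6, 294.5 ± 4.06 and 303.4 ± 7.08 in the same order. HOXC summed to 37.4 ± 2.08, 46 ± 2.58 and 45.8 ± 2.32. HOXD summed to 15.5 ± 1.25, 22.6 ± 1.23 and 21 ± 0.664, and all 6 hairpin-labelled libraries, at 20.4 or more, were above all 6 others, at 18.9 or less. These sums are given without a test.

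**Figure D1:**
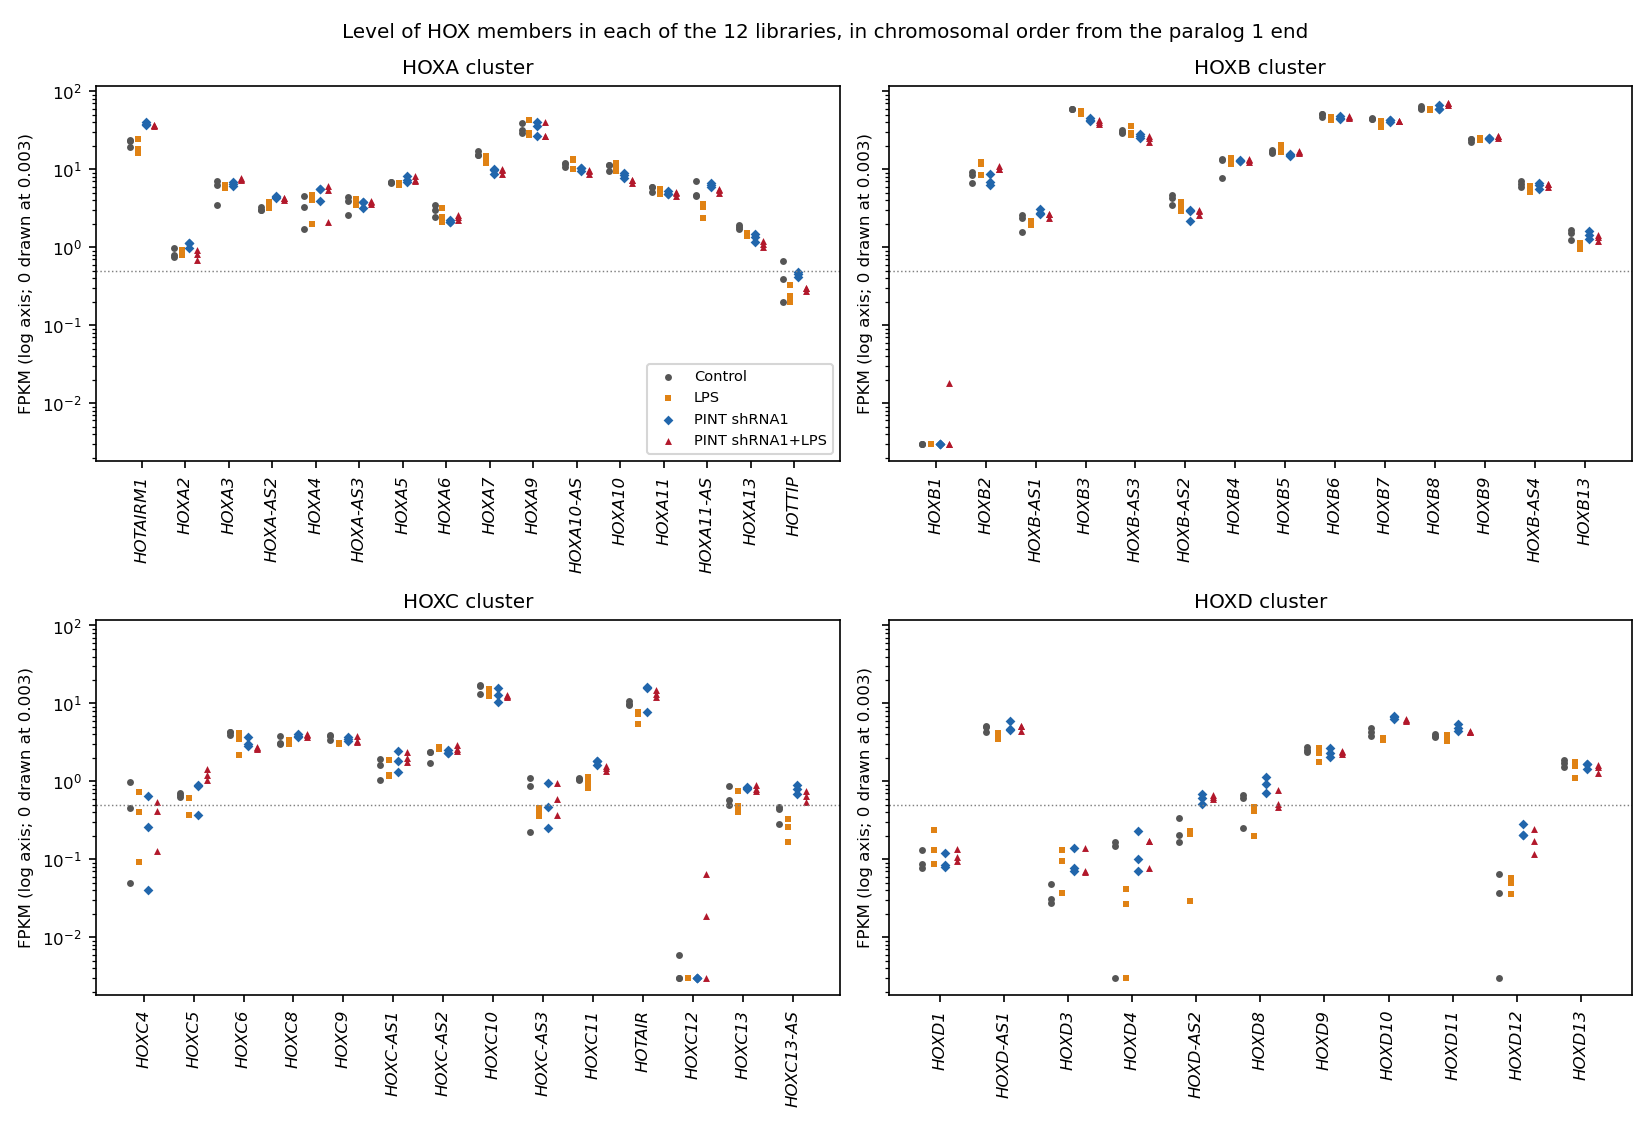
FPKM (log axis, values of 0 drawn at 0.003) of the members reported in each of the 12 libraries, 1 panel per cluster, members in chromosomal order from the paralog 1 end, 1 colour and marker per group; the dotted line is the low-value filter of 0.5 FPKM. Levels ran from HOXB8, at 62.2 FPKM in Control, down to HOXB1, which was listed at 0 in 11 of the 12 libraries.

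Not every member was expressed at a level that could be tested. A gene was tested where at least 3 of the 12 libraries had 0.5 FPKM or more, which 49 members passed (33 coding, 16 noncoding) and 7 did not. HOXB1, an anterior hindbrain gene, was listed at 0 in 11 libraries and at 0.018 FPKM in PINT shRNA1+LPS replicate 1. HOXC12 was at 0 in 9 libraries and at 0.00589 to 0.0646 in the other 3. The anterior HOXD genes HOXD1, HOXD3 and HOXD4 had group means of 0.0956 to 0.151, 0.0358 to 0.0962 and 0.0228 to 0.14 FPKM, and HOTTIP, the noncoding RNA at the HOXA13 end of its cluster, 0.254 to 0.45. The seventh, HOXD12, is described with its HOXD neighbours below.

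The comparison of hairpin-labelled with unlabelled libraries was made apart from LPS (PINT shRNA1 against Control) and under LPS (PINT shRNA1+LPS against LPS). The groups compared share no library. The spread of each gene was estimated from all 12 libraries for both comparisons, so calls in both are not fully independent. HOX members split in both directions: without LPS 7 were higher and 5 lower of 49, and with LPS 11 were higher and 6 lower (limma on log2(FPKM + 0.5), Benjamini-Hochberg adjusted p below 0.05 over all 17214 genes tested). Changes are log2 fold changes ± SE on that scale, where the added 0.5 makes changes of low genes look smaller. The background was high: without LPS 16.9% of all genes were called higher and 10.3% lower, and with LPS 17.7% and 11.6%. Members were called at 14.3% and 10.2% without LPS, which is close to the background, and at 22.4% and 12.2% with LPS. The members' median was 0.01 against 0.06 for all genes tested without LPS, and 0.15 against 0.05 with LPS. The LPS libraries, the baseline of the second of these, are also the group set against Control further below. Low values in them would raise the one change and lower the other. The members' median without LPS changed sign, to -0.03 and -0.04, under median scaling and quantile normalization. Leaving out single libraries gave -0.03 (without Control replicate 3) to 0.04 (without PINT shRNA1 replicate 1) for the median without LPS, which was also below 0 without Control replicate 2 or PINT shRNA1 replicate 3. For the median with LPS it gave 0.09 (without PINT shRNA1+LPS replicate 2) to 0.19 (without PINT shRNA1+LPS replicate 3). Median scaling and quantile normalization gave 7 members higher and 6 lower without LPS and 10 higher and 6 lower with it, while the share of higher calls among all genes called went from 62.1% to 51.9% and 51.5% without LPS and from 60.4% to 49.3% and 53.1% with it. In the fit without PINT shRNA1 replicate 3, 8 members were called between PINT shRNA1 and Control, in place of 12.

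Both comparisons called 9 of the 49 members in the same direction, 5 higher (10.2% of members, against 11.7% of all genes tested) and 4 lower (8.16% against 7.63%). Another 3 were called without LPS and not with it, 8 with LPS and not without it, and 29 in neither. The higher counts in both comparisons include HOXD-AS2 and HOXC13-AS, which reached 0.5 FPKM only in hairpin-labelled libraries, so they entered the test through the groups where they are high and had to be higher. By cluster, HOXD had 3 calls without and 3 with LPS of 7 members tested, all higher, of which HOXD-AS2 gave 1 in each comparison. HOXC had 2 and 4 of 13, all higher, of which HOXC13-AS gave 1 in each. These counts are descriptions, to be read beside the 16.9% and 17.7% of all genes called higher. That share depended on level. Of tested genes with a mean under 5 FPKM, 12.9% were called higher without LPS and 14.6% with it. At a mean of 5 FPKM or more the shares were 20.6% and 20.4%. Of the calls in HOXB, 1 was higher and 4 were lower, and HOXA had 5 higher and 7 lower calls over both comparisons.

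**Figure D2:**
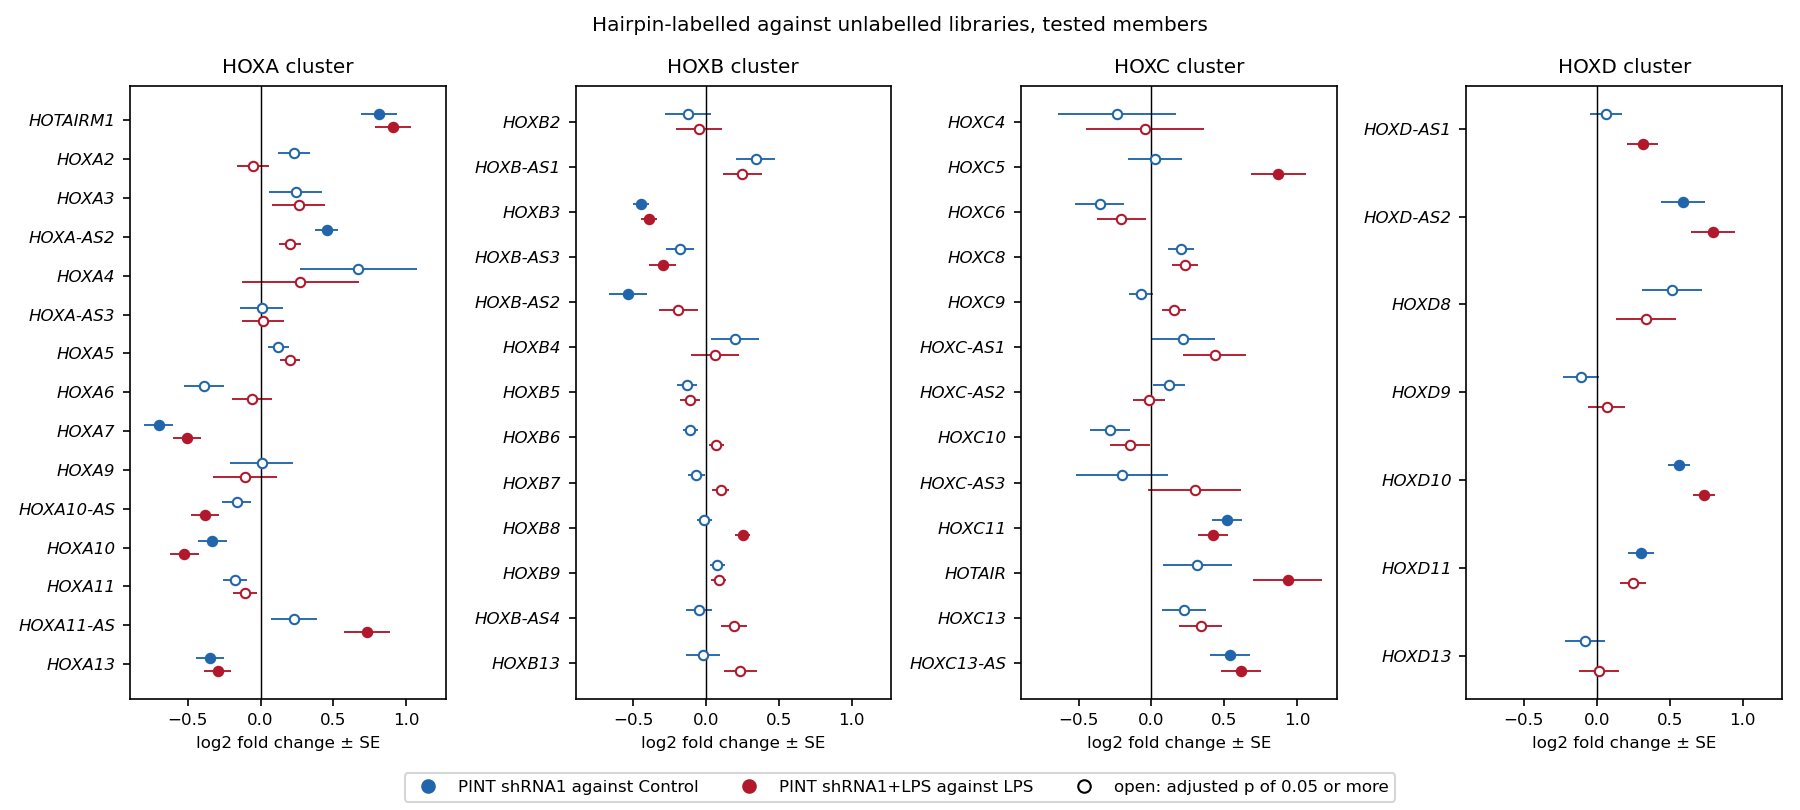
Log2 fold change ± SE of the tested members reported in PINT shRNA1 against Control (blue) and PINT shRNA1+LPS against LPS (red), 1 panel per cluster in chromosomal order; filled points have an adjusted p below 0.05. HOTAIRM1 lies farthest to the right in both comparisons among members called in both, and HOXA7 and HOXB3 lie to the left. The filled points of the HOXC and HOXD panels lie to the right, among them HOXC13-AS and HOXD-AS2, whose direction the filter fixed.

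HOTAIRM1, a myeloid-associated noncoding RNA of the HOXA cluster, had the largest change called in both comparisons. It stood at 23.4, 19.4 and 23.5 FPKM in Control and 24.3, 18.4 and 16.3 in LPS, against 37.5, 38.7 and 40.9 in PINT shRNA1 and 36.2, 37.2 and 37.1 in PINT shRNA1+LPS. All 6 hairpin-labelled libraries, at 36.2 or more, were above all 6 others, at 24.3 or less. The change was 0.81 ± 0.122 without LPS (limma, adjusted p = 0.000749; 1.76-fold) and 0.91 ± 0.122 with LPS (adjusted p = 0.000331; 1.88-fold). As a ratio of mean FPKM, the low members HOXD-AS2 and HOXC13-AS, also called in both, changed more.

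On chromosome 2 the posterior gene HOXD10, a limb and motor neuron patterning gene, was higher with the hairpin label. It stood at 4.78, 4.29 and 3.86 FPKM in Control and 3.49, 3.42 and 3.62 in LPS, against 6.62, 6.84 and 6.34 in PINT shRNA1 and 6.21, 6.3 and 5.98 in PINT shRNA1+LPS. All hairpin-labelled libraries, at 5.98 or more, lay above all others, at 4.78 or less. The change was 0.56 ± 0.0745 without LPS (limma, adjusted p = 0.000331) and 0.73 ± 0.0745 with LPS (adjusted p = 5.34e-05). HOXD11, the next gene, which shares 21.4% of its exon bases with HOXD10 on the same strand, stood at 3.66, 3.84 and 4 FPKM in Control and 3.99, 3.41 and 3.31 in LPS, against 5.43, 4.38 and 4.79 in PINT shRNA1 and 4.28, 4.45 and 4.26 in PINT shRNA1+LPS. Its change was 0.30 ± 0.0886 without LPS (limma, adjusted p = 0.0268) and 0.25 ± 0.0886 with LPS (adjusted p = 0.0554, not called). The HOXD11 call ended in 5 of 23 alternative analyses: without Control replicate 1 or 2, without PINT shRNA1 replicate 1 or 3, and with only the groups compared, with adjusted p up to 0.0997.

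HOXD-AS2, antisense to HOXD3 over 26.5% of its own exon bases, was low in all libraries. It stood at 0.206, 0.337 and 0.166 FPKM in Control and 0.0289, 0.211 and 0.228 in LPS, against 0.516, 0.616 and 0.686 in PINT shRNA1 and 0.628, 0.666 and 0.588 in PINT shRNA1+LPS. It reached 0.5 FPKM in 6 libraries, all hairpin-labelled, so it passed the filter only through the groups where it is high and had to differ. The change was 0.59 ± 0.15 without LPS (limma, adjusted p = 0.0144, and 0.0528 without PINT shRNA1 replicate 3) and 0.80 ± 0.15 with LPS (adjusted p = 0.00262). HOXD12, which lies between HOXD11 and HOXD13, did not pass the filter. It stood at 0.0369, 0 and 0.0644 FPKM in Control and 0.0498, 0.0573 and 0.0362 in LPS, against 0.208, 0.281 and 0.205 in PINT shRNA1 and 0.171, 0.247 and 0.116 in PINT shRNA1+LPS. All 6 hairpin-labelled libraries were above all 6 others, and with no filter on low values its change was 0.46 ± 0.0758 without LPS (limma, adjusted p = 0.00427) and 0.30 ± 0.0758 with LPS (adjusted p = 0.0305). HOXD13, the most posterior gene of the cluster and a limb and hindgut gene, was not called, at -0.08 ± 0.138 and 0.01 ± 0.138.

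In the HOXC cluster, HOXC11 and HOXC13-AS were called higher in both comparisons. HOXC11, a posterior HOXC transcription factor whose exons overlap no other gene, stood at 1.06, 1.11 and 1.05 FPKM in Control and 0.955, 0.822 and 1.15 in LPS, against 1.61, 1.83 and 1.82 in PINT shRNA1 and 1.47, 1.58 and 1.36 in PINT shRNA1+LPS. Every hairpin-labelled library was at 1.36 or more, and every other library at 1.15 or less. The change was 0.52 ± 0.102 without LPS (limma, adjusted p = 0.00369) and 0.42 ± 0.102 with LPS (adjusted p = 0.00967). HOXC13-AS, antisense to HOXC13 over 12.2% of its exon bases, stood at 0.465, 0.439 and 0.282 FPKM in Control and 0.261, 0.33 and 0.165 in LPS, against 0.792, 0.699 and 0.907 in PINT shRNA1 and 0.544, 0.748 and 0.659 in PINT shRNA1+LPS. Like HOXD-AS2, it reached 0.5 FPKM only in the 6 hairpin-labelled libraries and had to differ. Its change was 0.54 ± 0.136 without LPS (limma, adjusted p = 0.0136, and 0.0524 without PINT shRNA1 replicate 3) and 0.61 ± 0.136 with LPS (adjusted p = 0.00637).

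The members called lower in both comparisons were all coding, 3 from HOXA and 1 from HOXB. HOXB3, the second most abundant member in Control, stood at 59.95, 59.3 and 59.5 FPKM in Control and 51.7, 56.2 and 53.7 in LPS, against 46.2, 43.2 and 41.6 in PINT shRNA1 and 40.8, 43.6 and 38.6 in PINT shRNA1+LPS. The hairpin-labelled libraries, at 46.2 or less, lay below all others, at 51.7 or more. HOXB3 fell by 0.45 ± 0.054 without LPS (limma, adjusted p = 0.000191) and by 0.39 ± 0.054 with LPS (adjusted p = 0.000386). It shares 7.94% of its exon bases with HOXB4 and HOXB6 on the same strand, and neither of these was called in either comparison. On the opposite strand it shares 5.27% with HOXB-AS1 and HOXB-AS3, and HOXB-AS3 was called lower with LPS.

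HOXA7, a central HOXA gene, stood at 17.2, 15.3 and 15.2 FPKM in Control and 15, 14.6 and 11.9 in LPS, against 9.93, 8.73 and 10.2 in PINT shRNA1 and 9.81, 10.2 and 8.72 in PINT shRNA1+LPS. Its hairpin-labelled libraries, at 10.2 or less, lay below all others, at 11.9 or more. HOXA7 fell by 0.70 ± 0.0985 without LPS (limma, adjusted p = 0.000506) and by 0.50 ± 0.0985 with LPS (adjusted p = 0.00317). HOXA-AS3 covers 62.5% of the HOXA7 exon bases on the opposite strand, and whether the libraries keep strand is not given in the sources used here, so reads of the pair may not be separable. HOXA-AS3 itself stood at 3.64 ± 0.932 FPKM in Control and 3.74 ± 0.36 in LPS, against 3.6 ± 0.311 in PINT shRNA1 and 3.78 ± 0.145 in PINT shRNA1+LPS, and it was not called, at 0.01 ± 0.147 and 0.02 ± 0.147.

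HOXA10, a posterior gene also used in blood and uterus, stood at 11.3, 11.5 and 9.47 FPKM in Control and 9.44, 9.96 and 12 in LPS, against 7.83, 8.4 and 9.11 in PINT shRNA1 and 7.2, 7.39 and 6.74 in PINT shRNA1+LPS. Every hairpin-labelled library was below every other, at 9.11 or less against 9.44 or more. HOXA10 fell by 0.33 ± 0.101 without LPS (limma, adjusted p = 0.0329) and by 0.52 ± 0.101 with LPS (adjusted p = 0.00302). The call without LPS ended in 7 of 23 alternative analyses, with adjusted p up to 0.109: no filter, the replicate block, only the groups compared, and without Control replicate 1 or 2 or PINT shRNA1 replicate 1 or 2. HOXA10-AS, which is antisense to HOXA10 and HOXA9 and shares 62.3% of its exon bases with genes on the other strand, stood at 11.9, 10.6 and 11.7 FPKM in Control and 13.5, 13.2 and 10.2 in LPS, against 10.4, 9.65 and 10.3 in PINT shRNA1 and 9.7, 9.47 and 8.63 in PINT shRNA1+LPS. It fell by 0.38 ± 0.0984 with LPS (limma, adjusted p = 0.0145) and changed by -0.16 ± 0.0984 without LPS, which was not called. Its call ended without LPS replicate 1 or 2 or PINT shRNA1+LPS replicate 3, with adjusted p up to 0.0568.

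HOXA13, the most posterior HOXA gene and a hindgut gene, stood at 1.82, 1.71 and 1.96 FPKM in Control and 1.52, 1.38 and 1.49 in LPS, against 1.36, 1.46 and 1.17 in PINT shRNA1 and 0.997, 1.11 and 1.19 in PINT shRNA1+LPS. Within each comparison the groups did not overlap, but the LPS libraries, at 1.38 to 1.52, overlapped those of PINT shRNA1. HOXA13 fell by 0.35 ± 0.0949 without LPS (limma, adjusted p = 0.0201) and by 0.29 ± 0.0949 with LPS (adjusted p = 0.0385). The call without LPS ended in 3 of 23 alternatives (without Control replicate 3, without PINT shRNA1 replicate 3, only the groups compared), with adjusted p up to 0.0744. The call with LPS ended in 10, with adjusted p up to 0.134: leaving out any one LPS or PINT shRNA1+LPS library or PINT shRNA1 replicate 1, no filter, the replicate block and only the groups compared.

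**Figure D3:**
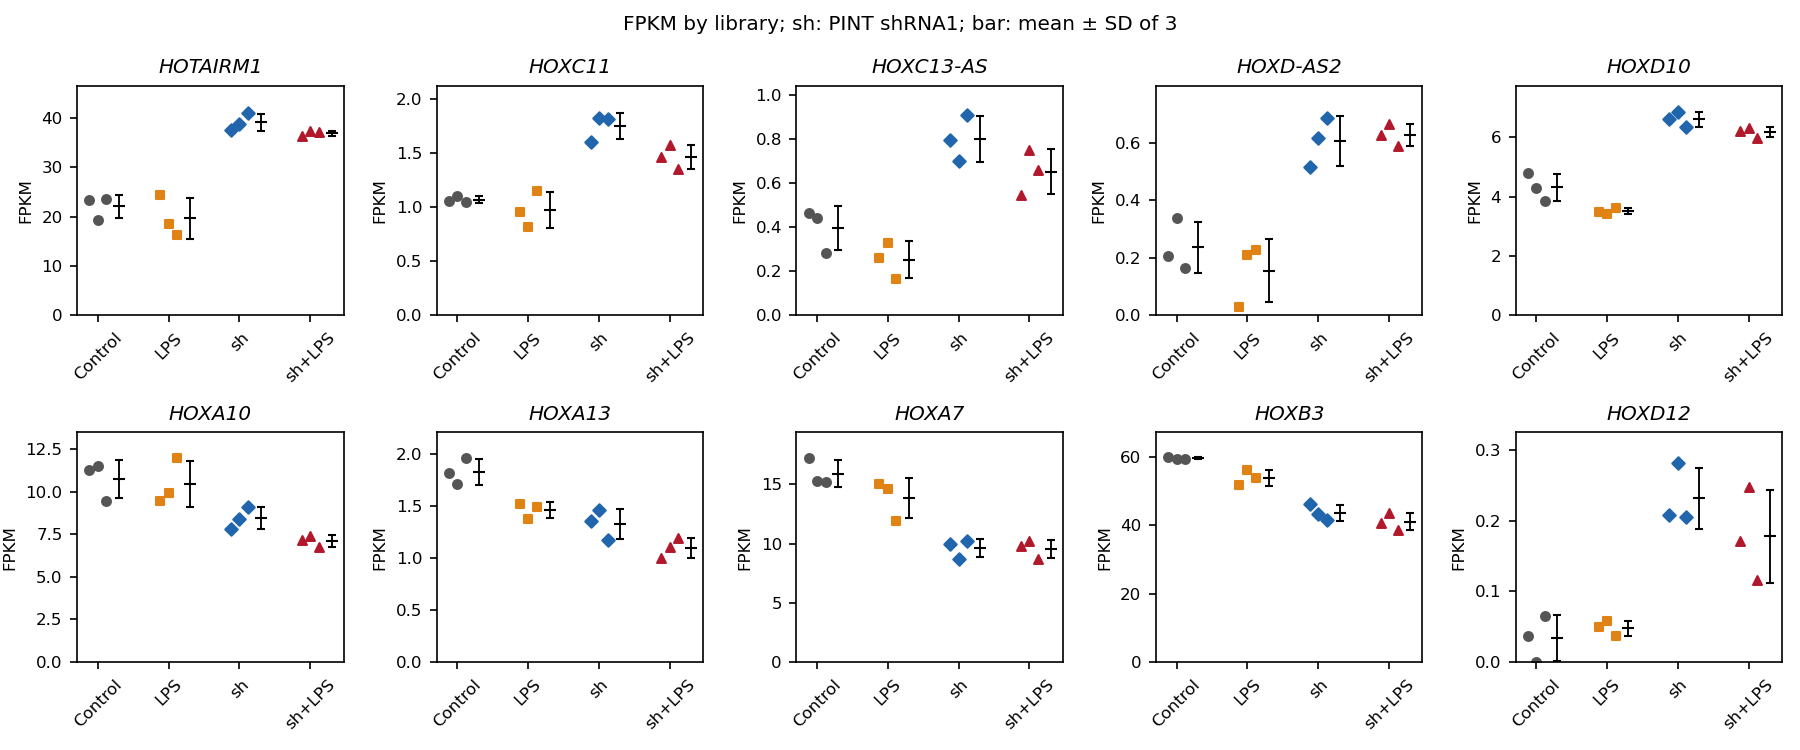
FPKM in each library (points) with mean ± SD of 3 (bars) for the 9 members called in both hairpin comparisons and for HOXD12, which was below the filter; sh stands for PINT shRNA1, and each axis starts at 0. The 5 members called higher fill the top row, with HOTAIRM1 at 36.2 to 40.9 FPKM in the hairpin-labelled libraries and 16.3 to 24.3 in the others.

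The sequence just before the start of these genes is shown for the members called in both comparisons that have a RefSeq promoter entry (GRCh38.p14; 250 bases upstream of the start, 5′ to 3′ on the gene's strand), with HOXA-AS2, called without LPS, as a window with no CG dinucleotide. Capitals mark CG dinucleotides, which Polycomb and MLL complexes are known to favour in HOX promoters. The windows are chr2:176116528-176116777 (plus strand) for HOXD10, chr2:176137099-176137348 (minus) for HOXD-AS2, chr7:27156676-27156925 (minus) for HOXA7, chr7:27179862-27180111 (minus, the farther upstream of its 2 windows) for HOXA10, chr7:27200092-27200341 (minus) for HOXA13 and chr7:27121669-27121918 (plus) for HOXA-AS2.
HOXD10: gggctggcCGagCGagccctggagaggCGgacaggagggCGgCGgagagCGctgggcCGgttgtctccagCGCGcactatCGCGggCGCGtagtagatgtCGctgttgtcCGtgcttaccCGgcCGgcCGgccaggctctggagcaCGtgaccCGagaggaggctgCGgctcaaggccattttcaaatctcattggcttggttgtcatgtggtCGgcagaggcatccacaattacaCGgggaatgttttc
HOXD-AS2: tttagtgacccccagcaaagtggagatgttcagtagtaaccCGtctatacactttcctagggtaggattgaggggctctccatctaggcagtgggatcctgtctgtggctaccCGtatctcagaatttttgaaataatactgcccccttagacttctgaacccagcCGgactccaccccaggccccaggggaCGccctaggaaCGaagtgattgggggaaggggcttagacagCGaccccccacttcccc
HOXA7: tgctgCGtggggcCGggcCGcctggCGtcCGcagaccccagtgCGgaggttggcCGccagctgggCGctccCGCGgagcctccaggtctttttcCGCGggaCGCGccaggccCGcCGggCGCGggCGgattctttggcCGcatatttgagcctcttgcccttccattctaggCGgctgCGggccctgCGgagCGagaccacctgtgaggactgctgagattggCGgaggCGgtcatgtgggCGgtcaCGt
HOXA10: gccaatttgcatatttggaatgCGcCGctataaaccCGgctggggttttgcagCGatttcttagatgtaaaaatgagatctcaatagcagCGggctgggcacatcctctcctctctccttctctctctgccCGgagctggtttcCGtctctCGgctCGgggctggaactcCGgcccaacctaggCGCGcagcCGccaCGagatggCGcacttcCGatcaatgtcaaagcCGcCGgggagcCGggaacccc
HOXA13: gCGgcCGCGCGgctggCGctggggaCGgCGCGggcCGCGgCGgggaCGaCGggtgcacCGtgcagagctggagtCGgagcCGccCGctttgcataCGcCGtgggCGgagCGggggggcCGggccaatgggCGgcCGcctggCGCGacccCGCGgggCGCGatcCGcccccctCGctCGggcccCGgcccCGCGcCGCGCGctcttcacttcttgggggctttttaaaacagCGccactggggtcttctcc
HOXA-AS2: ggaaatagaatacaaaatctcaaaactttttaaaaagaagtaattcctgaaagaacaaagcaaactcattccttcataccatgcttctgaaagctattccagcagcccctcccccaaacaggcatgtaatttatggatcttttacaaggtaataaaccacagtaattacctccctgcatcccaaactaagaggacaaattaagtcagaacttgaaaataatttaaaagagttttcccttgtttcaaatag

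These windows held 23 CG dinucleotides for HOXD10 and 6 for HOXD-AS2, both called higher, and 28 for HOXA7, 19 for HOXA10 and 40 for HOXA13, all called lower. HOXA-AS2 held 0. Of the 56 members, 30 matched an entry, with 41 windows in all, and their median was 16 CG dinucleotides against 11 over all 35116 windows. Median GC content was 56.4% against 58%. Motifs were searched on both strands: TTTAT, the core that CDX-type homeodomains bind, stood in 43.9% of member windows and 32.7% of all windows. TGATNNAT, a HOX-PBX type site, stood in 9.76% and 6.47%. GGNNNTTCC, part of the NF-kB site, stood in 12.2% and 17.1%, and AGGTCA, a retinoic acid receptor core site, in 0% and 12.1%. TTTAT and TGATNNAT can overlap each other. Among the printed windows TTTAT was found 1 time in HOXA10 and 2 times in HOXA-AS2, and the other 3 motifs in none. HOXC4 and HOXC5 share 1 window. Windows overlap on opposite strands for HOXA11 and HOXA11-AS, for HOXA13 and HOTTIP, and for HOXD1 and HOXD-AS1. Some members, such as HOXA3 and HOXD-AS1, have several windows, so the member windows are not all separate. These matches are descriptions of letters, not of binding.

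The remaining calls were in 1 hairpin comparison each, and since the interaction called no member, the effect with LPS was not shown to differ from that without it. Without LPS, HOXA-AS2, which shares 11.9% of its exon bases with HOXA3 and HOXA4 on the other strand, stood at 2.99, 3.3 and 2.98 FPKM in Control and 3.78, 3.2 and 3.72 in LPS, against 4.27, 4.44 and 4.53 in PINT shRNA1 and 4.26, 4.01 and 4.26 in PINT shRNA1+LPS. Its change was 0.45 ± 0.0762 without LPS (limma, adjusted p = 0.00147) and 0.20 ± 0.0762 with LPS (adjusted p = 0.0672), and all 6 hairpin-labelled libraries were above all others. HOXB-AS2, whose exons overlap no other gene, stood at 4.24, 4.75 and 3.51 FPKM in Control and 2.96, 3.76 and 3.25 in LPS, against 2.92, 3.05 and 2.2 in PINT shRNA1 and 2.59, 2.98 and 2.95 in PINT shRNA1+LPS. It fell by 0.54 ± 0.133 without LPS (limma, adjusted p = 0.0129) and changed by -0.19 ± 0.133 with LPS (adjusted p = 0.318).

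With LPS, the noncoding RNA HOTAIR had the largest change among members on the log2(FPKM + 0.5) scale. As a ratio of mean FPKM, some low members changed more. HOXC5 went from 0.45 in LPS to 1.23 in PINT shRNA1+LPS and HOXD-AS2 from 0.156 to 0.627, against 6.8 to 13.4 for HOTAIR. HOTAIR is transcribed from the HOXC cluster between HOXC11 and HOXC12 and is known for its reported link to Polycomb repressive complex 2. It stood at 10.6, 9.87 and 9.56 FPKM in Control and 5.41, 7.22 and 7.77 in LPS, against 15.7, 7.69 and 16.3 in PINT shRNA1 and 12, 14.8 and 13.3 in PINT shRNA1+LPS. PINT shRNA1+LPS lay above LPS without overlap, while PINT shRNA1 was split, with replicate 2 below all Control libraries and the others above them. The change was 0.94 ± 0.236 with LPS (limma, adjusted p = 0.0125) and 0.32 ± 0.236 without LPS (adjusted p = 0.358).

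HOXC5 and HOXA11-AS were also called higher with LPS. HOXC5, which shares 59.9% of its exon bases with overlapping genes on the same strand, stood at 0.627, 0.709 and 0.665 FPKM in Control and 0.368, 0.367 and 0.616 in LPS, against 0.369, 0.878 and 0.892 in PINT shRNA1 and 1.21, 1.45 and 1.04 in PINT shRNA1+LPS. PINT shRNA1+LPS was the highest group, without overlap with any other. Its change was 0.87 ± 0.187 with LPS (limma, adjusted p = 0.00543) and 0.02 ± 0.187 without LPS (adjusted p = 0.942). HOXA11-AS, antisense to HOXA11 and known from the endometrium, stood at 6.99, 4.74 and 4.6 FPKM in Control and 2.39, 3.6 and 3.29 in LPS, against 6.78, 6.37 and 5.96 in PINT shRNA1 and 5.03, 5.66 and 5.51 in PINT shRNA1+LPS. LPS was the lowest group, below all other libraries. The change was 0.73 ± 0.158 with LPS (limma, adjusted p = 0.00572) and 0.23 ± 0.158 without LPS (adjusted p = 0.317).

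The abundant gene HOXB8, a gene of the trunk and of blood progenitors, stood at 65.7, 60.6 and 60.2 FPKM in Control and 59.6, 57 and 58.6 in LPS, against 58.9, 59.8 and 66.3 in PINT shRNA1 and 70.5, 70.9 and 67.5 in PINT shRNA1+LPS. PINT shRNA1+LPS was above all other libraries and LPS, apart from 1 PINT shRNA1 library at 58.9, below them. The change was 0.25 ± 0.0521 with LPS (limma, adjusted p = 0.00448) and -0.01 ± 0.0521 without LPS (adjusted p = 0.894). HOXD-AS1, antisense at the HOXD1 end, stood at 4.98, 4.32 and 5.13 FPKM in Control and 4.2, 3.5 and 3.86 in LPS, against 5.87, 4.62 and 4.7 in PINT shRNA1 and 4.47, 5.07 and 5.2 in PINT shRNA1+LPS. Its change was 0.32 ± 0.107 with LPS (limma, adjusted p = 0.0469). This call ended in 12 of 23 alternatives, with adjusted p up to 0.142: median scaling, quantile normalization, no filter, the replicate block, and leaving out replicate 1 or 3 of Control, 2 or 3 of LPS, 2 or 3 of PINT shRNA1, or 2 or 3 of PINT shRNA1+LPS. HOXB-AS3, described in colon cancer as the source of a small peptide, stood at 32.3, 29.9 and 28.9 FPKM in Control and 28.9, 35.9 and 27.8 in LPS, against 25.4, 28.1 and 26.9 in PINT shRNA1 and 25.5, 26.5 and 22.7 in PINT shRNA1+LPS. It shares 30.1% of its exon bases with HOXB3, HOXB5 and HOXB6 on the opposite strand. HOXB-AS3 fell by 0.30 ± 0.0939 with LPS (limma, adjusted p = 0.0356) and changed by -0.18 ± 0.0939 without LPS. Its call ended in 7 of 23 alternatives, with adjusted p up to 0.129: rescaling to a common total, no filter, no intensity trend, only the groups compared, and without LPS replicate 2 or PINT shRNA1+LPS replicate 1 or 3.

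Exposure to LPS was compared without the hairpin label (LPS against Control) and with it (PINT shRNA1+LPS against PINT shRNA1). The LPS libraries are also the baseline of PINT shRNA1+LPS against LPS above and enter the interaction, so these are not separate results. Without the label, 2 of 49 members were called lower (4.08%, against 1.19% of all genes tested) and 0 higher (against 1.57%). At an unadjusted p below 0.05 in limma, 12 members were lower and 3 higher, against 1841 lower and 1055 higher of all 17214 genes. The members' median was -0.15 against -0.04 for all genes, and 37 of 49 members (75.5%) were below 0 against 59.3% of all genes. Tested genes with a mean under 5 FPKM had a median of -0.08, and those at 5 FPKM or more -0.02. Under median scaling, which moved the median of all genes to 0.01, the members' median was -0.10 with 33 of 49 below 0. The median was -0.09 without LPS replicate 3 and -0.18 without LPS replicate 2. With the label, limma called 0 members (against 0.186% of all genes in either direction). At an unadjusted p below 0.05 in limma, 3 members were higher and 2 lower, against 512 higher and 996 lower of all 17214 genes. The members' median was -0.03 against -0.04 for all genes. That median was 0.01 and 0.02 under median scaling and quantile normalization, and -0.06 (without PINT shRNA1 replicate 2) to -0.01 (without PINT shRNA1+LPS replicate 3) with single libraries left out.

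HOXA11-AS, whose library values are given above, was among those called lower after LPS. The same LPS libraries were the baseline of its call in PINT shRNA1+LPS against LPS. HOXA11-AS fell by 0.72 ± 0.158 (limma, adjusted p = 0.0396), from 5.44 ± 1.34 to 3.09 ± 0.63 FPKM. The groups did not overlap, and with the hairpin label the change was -0.22 ± 0.158, not called. The call depended on the settings and ended in 14 of 23 alternatives (adjusted p from 0.036 to 0.226): leaving out Control replicate 1 or 2, LPS replicate 1 or 3, or any hairpin-labelled library, quantile normalization, no filter, the replicate block and a fit of only the groups compared.

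The interaction, which is the LPS response with the hairpin label minus that without it, called 0 of 49 members in limma (against 0.128% of all genes). At an unadjusted p below 0.05 in limma, 4 members were higher and 1 lower, against 614 higher and 719 lower of all 17214 genes. The members' median was 0.09 against -0.001 for all genes tested, and 0.06 without PINT shRNA1+LPS replicate 2. HOXB8 had an interaction of 0.26 ± 0.0737 (limma, adjusted p = 0.363) and HOXC5 one of 0.85 ± 0.264 (adjusted p = 0.449). For HOTAIR it was 0.62 ± 0.333 (adjusted p = 0.691) and for HOXA11-AS 0.50 ± 0.224 (adjusted p = 0.644).

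**Figure D4:**
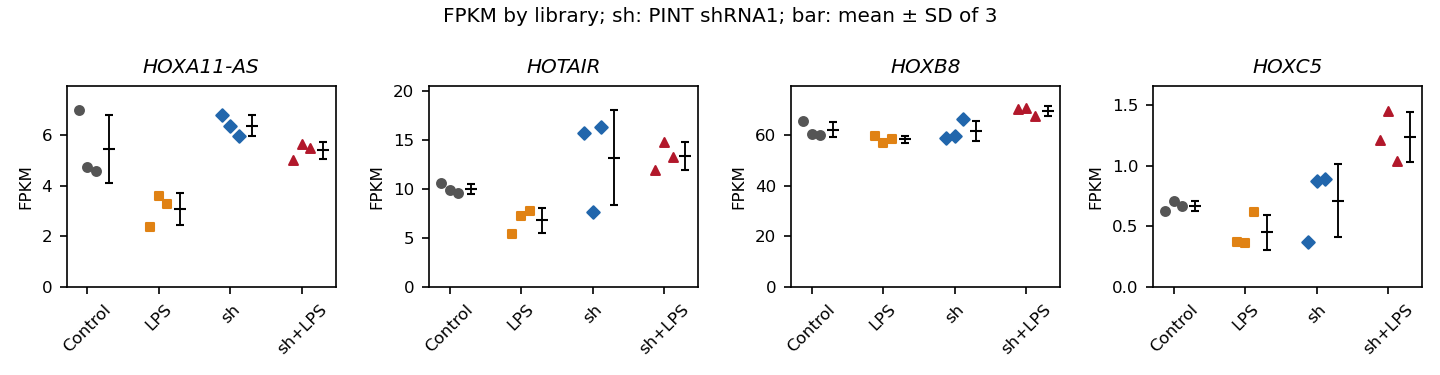
FPKM in each library (points) with mean ± SD of 3 (bars) for HOXA11-AS, HOTAIR, HOXB8 and HOXC5; sh stands for PINT shRNA1, and each axis starts at 0. The LPS libraries of HOXA11-AS, at 2.39 to 3.6 FPKM, lie below all other libraries of that gene.

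Of the 29 tested members called in no comparison, 8 belong to HOXA. HOXA9, the most abundant HOXA member and a gene of blood progenitors, stood at 33.7 ± 5.29 FPKM in Control and 33.5 ± 8.49 in LPS, against 34.2 ± 6.91 in PINT shRNA1 and 31.1 ± 7.96 in PINT shRNA1+LPS. It ranged from 26.4 to 43.3 FPKM over the libraries, and its groups all overlapped. HOXA11 stood at 5.7 ± 0.49 FPKM in Control and 5.28 ± 0.411 in LPS, against 4.99 ± 0.28 in PINT shRNA1 and 4.87 ± 0.277 in PINT shRNA1+LPS. HOXA5, a gene of lung and gut development, stood at 6.84 ± 0.0733 FPKM in Control and 6.47 ± 0.154 in LPS, against 7.51 ± 0.635 in PINT shRNA1 and 7.53 ± 0.56 in PINT shRNA1+LPS. HOXA6 stood at 2.97 ± 0.513 FPKM in Control and 2.58 ± 0.555 in LPS, against 2.14 ± 0.065 in PINT shRNA1 and 2.43 ± 0.145 in PINT shRNA1+LPS. In HOXA5 the LPS libraries, at 6.62 or less, were below those of Control, at 6.77 or more, while in HOXA11 and HOXA6 these groups overlapped. The genes nearer the paralog 1 end followed. HOXA2 stood at 0.844 ± 0.122 FPKM in Control and 0.856 ± 0.0614 in LPS, against 1.07 ± 0.0885 in PINT shRNA1 and 0.813 ± 0.112 in PINT shRNA1+LPS. HOXA3 stood at 5.64 ± 1.89 FPKM in Control and 6.15 ± 0.263 in LPS, against 6.5 ± 0.4 in PINT shRNA1 and 7.47 ± 0.24 in PINT shRNA1+LPS, with Control replicate 1 alone at 3.5 FPKM. HOXA4 stood at 3.17 ± 1.39 FPKM in Control and 3.59 ± 1.42 in LPS, against 5.1 ± 0.973 in PINT shRNA1 and 4.58 ± 2.14 in PINT shRNA1+LPS, and single libraries of Control, LPS and PINT shRNA1+LPS at 1.72, 1.98 and 2.13 FPKM were well below the others of their groups. HOXA3 and HOXA4 share 9.24% and 31% of their exon bases with other genes on the same strand. HOXA-AS3, given above, is the eighth.

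In HOXB, 9 tested members were called in no comparison. HOXB6 stood at 49.7 ± 2.58 FPKM in Control and 44.4 ± 2.04 in LPS, against 46 ± 1.55 in PINT shRNA1 and 46.7 ± 1.71 in PINT shRNA1+LPS. HOXB7 stood at 44.5 ± 0.791 FPKM in Control and 38.8 ± 3.44 in LPS, against 42.5 ± 1.49 in PINT shRNA1 and 41.6 ± 0.447 in PINT shRNA1+LPS. HOXB9 stood at 23.7 ± 1.26 FPKM in Control and 24.7 ± 1 in LPS, against 25.1 ± 0.633 in PINT shRNA1 and 26.3 ± 0.835 in PINT shRNA1+LPS. These are trunk genes, and HOXB6 and HOXB7 had their highest means in Control. HOXB5 stood at 16.8 ± 0.579 FPKM in Control and 18.1 ± 1.88 in LPS, against 15.3 ± 0.49 in PINT shRNA1 and 16.7 ± 0.441 in PINT shRNA1+LPS. HOXB4, used in blood stem cells, stood at 11.5 ± 3.24 FPKM in Control and 12.6 ± 1.04 in LPS, against 12.9 ± 0.368 in PINT shRNA1 and 13.1 ± 0.491 in PINT shRNA1+LPS, with Control replicate 3 alone at 7.75 FPKM. HOXB2, a hindbrain gene, stood at 8.05 ± 1.32 FPKM in Control and 10.9 ± 2.08 in LPS, against 7.35 ± 1.3 in PINT shRNA1 and 10.4 ± 0.569 in PINT shRNA1+LPS. Its means were higher in both groups with LPS than in their counterparts. The change of HOXB2 was 0.41 ± 0.159 without the hairpin label and 0.49 ± 0.159 with it (limma, adjusted p = 0.222 and 0.407), not called. The remaining 3 were lower in level. HOXB13, a gene of prostate and hindgut, stood at 1.48 ± 0.22 FPKM in Control and 1.06 ± 0.0974 in LPS, against 1.45 ± 0.175 in PINT shRNA1 and 1.34 ± 0.123 in PINT shRNA1+LPS. HOXB-AS1 stood at 2.18 ± 0.528 FPKM in Control and 2.07 ± 0.123 in LPS, against 2.85 ± 0.242 in PINT shRNA1 and 2.56 ± 0.159 in PINT shRNA1+LPS. HOXB-AS4 stood at 6.46 ± 0.543 FPKM in Control and 5.43 ± 0.521 in LPS, against 6.24 ± 0.542 in PINT shRNA1 and 6.27 ± 0.306 in PINT shRNA1+LPS. The LPS group had the lowest mean in each.

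In HOXC, 9 tested members were called in no comparison. HOXC10, the most abundant HOXC member in Control and a posterior gene, stood at 15.8 ± 2.14 FPKM in Control and 13.9 ± 1.34 in LPS, against 13 ± 2.57 in PINT shRNA1 and 12.4 ± 0.332 in PINT shRNA1+LPS. HOXC6 stood at 4.22 ± 0.219 FPKM in Control and 3.29 ± 1 in LPS, against 3.2 ± 0.474 in PINT shRNA1 and 2.7 ± 0.0645 in PINT shRNA1+LPS. Both had their highest mean in Control. HOXC8 stood at 3.31 ± 0.424 FPKM in Control and 3.25 ± 0.217 in LPS, against 3.87 ± 0.212 in PINT shRNA1 and 3.9 ± 0.154 in PINT shRNA1+LPS. HOXC9 stood at 3.69 ± 0.29 FPKM in Control and 3.05 ± 0.0636 in LPS, against 3.49 ± 0.218 in PINT shRNA1 and 3.45 ± 0.303 in PINT shRNA1+LPS. HOXC13, a hair follicle gene, stood at 0.648 ± 0.198 FPKM in Control and 0.55 ± 0.18 in LPS, against 0.828 ± 0.0268 in PINT shRNA1 and 0.816 ± 0.0664 in PINT shRNA1+LPS. The antisense RNAs of the cluster were low. HOXC-AS1 stood at 1.53 ± 0.441 FPKM in Control and 1.42 ± 0.407 in LPS, against 1.86 ± 0.563 in PINT shRNA1 and 2.07 ± 0.308 in PINT shRNA1+LPS. HOXC-AS2 stood at 2.16 ± 0.381 FPKM in Control and 2.66 ± 0.0987 in LPS, against 2.37 ± 0.126 in PINT shRNA1 and 2.64 ± 0.237 in PINT shRNA1+LPS. HOXC-AS3 stood at 0.733 ± 0.453 FPKM in Control and 0.408 ± 0.0452 in LPS, against 0.555 ± 0.356 in PINT shRNA1 and 0.64 ± 0.298 in PINT shRNA1+LPS, and its libraries ranged from 0.223 to 1.09 FPKM within Control alone.

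HOXC4 is listed under 2 Ensembl genes, and the entry used stood at 0.988, 0.0503 and 0.455 FPKM in Control and 0.732, 0.0926 and 0.404 in LPS, against 0.655, 0.0409 and 0.262 in PINT shRNA1 and 0.414, 0.551 and 0.128 in PINT shRNA1+LPS. The other entry stood at 0.0734, 0.382 and 0.0261 FPKM in Control and 0.0896, 0.538 and 0.117 in LPS, against 0.116, 0.687 and 0.311 in PINT shRNA1 and 0.19, 0.184 and 0.48 in PINT shRNA1+LPS. Where 1 entry was low the other was high, as in replicate 2 of Control, of LPS and of PINT shRNA1, and the sum of both stayed between 0.432 and 1.06 FPKM. The level of either HOXC4 entry alone is therefore uncertain. In HOXD, HOXD9 stood at 2.57 ± 0.198 FPKM in Control and 2.26 ± 0.453 in LPS, against 2.35 ± 0.31 in PINT shRNA1 and 2.37 ± 0.129 in PINT shRNA1+LPS. HOXD13 stood at 1.71 ± 0.17 FPKM in Control and 1.48 ± 0.36 in LPS, against 1.59 ± 0.138 in PINT shRNA1 and 1.48 ± 0.173 in PINT shRNA1+LPS. The ranges of all groups overlapped in HOXD9, and in HOXD13 as well. HOXD8 stood at 0.506 ± 0.221 FPKM in Control and 0.362 ± 0.143 in LPS, against 0.925 ± 0.215 in PINT shRNA1 and 0.586 ± 0.167 in PINT shRNA1+LPS, and its change of 0.52 ± 0.204 without LPS missed the threshold (limma, adjusted p = 0.0856).

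Calls among noncoding and coding members are given side by side, and their difference was not tested. Without LPS 4 of 16 noncoding members were higher and 1 lower, against 3 higher and 4 lower of 33 coding members. With LPS the counts were 6 and 2 of 16 noncoding members and 5 and 4 of 33 coding ones. HOXD-AS2 and HOXC13-AS, which the filter let in only where they are high, are 2 of the noncoding members called higher in each comparison. Over all genes tested, 16.9% were higher and 10.3% lower without LPS, and 17.7% and 11.6% with LPS. Over all 280 tested genes with an antisense name, 14.3% were higher and 8.21% lower without LPS, and 13.9% and 7.14% with LPS. In the annotation at hand (GENCODE 29), 38 of the 56 members share exon bases with another gene, 20 on the same strand and 32 on the opposite one. In 1 such pair, HOXA11-AS was called with LPS while HOXA11, at -0.11 ± 0.0831, was not, and the difference between them was not tested.

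Genes that act with, on or beside the HOX clusters were taken as 6 further lists, in which STRA6 and SMUG1 were the genes called between LPS and Control. The same LPS libraries are the baseline of PINT shRNA1+LPS against LPS, where STRA6 and SMUG1 were called as well. The TALE homeodomain cofactors of HOX proteins, 10 tested, had 1 higher and 1 lower without LPS and 3 higher and 3 lower with LPS. Over all genes the shares were 16.9% higher and 10.3% lower without LPS, then 17.7% and 11.6% with LPS. MEIS1, a HOX cofactor in blood and development, was higher in both, at 0.35 ± 0.115 and 0.40 ± 0.115 (limma, adjusted p = 0.0437 and 0.0251). TGIF1, a repressor of the same class, fell by 0.31 ± 0.101 and 0.42 ± 0.101 (adjusted p = 0.0423 and 0.00976). PBX3, at 0.45 ± 0.082 (adjusted p = 0.00217), and PBX2 were the others called higher with LPS, and PBX4 and MEIS2 were the others called lower.

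Among 28 Polycomb genes, 4 were higher and 2 lower without LPS and 7 higher and 3 lower with LPS (background 16.9% and 10.3%, then 17.7% and 11.6%). JARID2, a Polycomb repressive complex 2 cofactor, went from 3.58 ± 0.316 FPKM in Control to 7.4 ± 0.23 in PINT shRNA1 and from 3.51 ± 0.289 in LPS to 7.51 ± 0.221 in PINT shRNA1+LPS. JARID2 changed by 0.96 ± 0.0758 and 1.00 ± 0.0758 (limma, adjusted p = 1.07e-05 and 6.24e-06). CBX6, a chromodomain subunit of Polycomb repressive complex 1, fell by 0.44 ± 0.0499 and 0.47 ± 0.0499 (adjusted p = 0.000126 and 7.45e-05). PCGF1, a ring finger subunit, was higher by 0.53 ± 0.101 and 0.46 ± 0.101 (adjusted p = 0.00311 and 0.00645). EZH2, the methyltransferase of Polycomb repressive complex 2, stood at 30.7 ± 0.985 FPKM in Control and 29.4 ± 1.33 in LPS, against 29.4 ± 0.515 with the hairpin label and 29.9 ± 0.772 with both, and was not called. It is named beside the rule, after its values were seen.

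In the MLL and H3K27 demethylase list, 20 tested, 6 were higher and 1 lower without LPS and 7 higher and 1 lower with LPS. The background was 16.9% higher and 10.3% lower, then 17.7% and 11.6%. The list also holds DOT1L, MLLT1, MLLT3, AFF1 and AFF4, which are neither MLL complex subunits nor H3K27 demethylases. DOT1L, the H3K79 methyltransferase, changed by 0.58 ± 0.0656 and 0.65 ± 0.0656 (limma, adjusted p = 0.000129 and 5.33e-05). SETD1A, KMT2C and AFF4 were also called higher in both, and DPY30, a shared core subunit, lower in both. The demethylase genes KDM6A and KDM6B were called higher without LPS and not with it. Of the ParaHox and CDX genes 3 were tested. CDX2, the intestinal homeobox gene that acts upstream of HOX genes, changed by 0.38 ± 0.0959 and 0.62 ± 0.0959 (limma, adjusted p = 0.0139 and 0.000832). GSX1 changed by 0.65 ± 0.122 and 0.81 ± 0.122 (limma, adjusted p = 0.0027 and 0.000646). It was low, at 0.434 ± 0.0335 FPKM in Control and 0.333 ± 0.0849 in LPS. With the hairpin label it stood at 0.976 ± 0.175, and at 0.961 ± 0.0684 with both. Like HOXD-AS2, GSX1 reached 0.5 FPKM only in hairpin-labelled libraries, so it had to be higher. PDX1, a pancreas and duodenum gene, changed by 0.39 ± 0.109 with LPS (limma, adjusted p = 0.0201) and by 0.26 ± 0.109 without it (adjusted p = 0.109, not called).

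Retinoic acid pathway genes, which feed into the anterior HOX genes, had 4 higher and 1 lower of 11 in each comparison. The background for these and for the flanking genes below was 16.9% higher and 10.3% lower without LPS, then 17.7% and 11.6% with LPS. ALDH1A3, a retinoic acid synthesis enzyme, fell by 1.00 ± 0.0523 and 0.72 ± 0.0523 (limma, adjusted p = 4.51e-07 and 4.93e-06). CRABP1, which binds retinoic acid in the cytoplasm, changed by 0.98 ± 0.226 and 0.78 ± 0.226 (adjusted p = 0.00862 and 0.0249), and RDH10, a retinol dehydrogenase, was called higher in both. STRA6, the retinol uptake receptor, fell by 0.27 ± 0.0617 after LPS without the label (adjusted p = 0.0459) and was called higher in PINT shRNA1+LPS against LPS, at 0.31 ± 0.0617 (adjusted p = 0.00371). Of 15 tested genes that flank the clusters, 1 was higher and 3 lower without LPS and 2 higher and 4 lower with LPS. HIBADH, beside HOXA, fell by 0.53 ± 0.0536 and 0.55 ± 0.0536 (limma, adjusted p = 6.21e-05 and 3.75e-05), and SKAP2, on the other side of HOXA, by 0.23 ± 0.0496 and 0.28 ± 0.0496 (adjusted p = 0.00557 and 0.00175). CBX5, beside HOXC, was lower and HNRNPA1, its neighbour, higher in both. SMUG1, a DNA glycosylase gene beside HOXC, rose by 0.40 ± 0.087 after LPS without the label (adjusted p = 0.0359) and fell by 0.41 ± 0.087 in PINT shRNA1+LPS against LPS (adjusted p = 0.00513). No list member was called in the interaction or in PINT shRNA1+LPS against PINT shRNA1, where limma called 0.186% of all genes.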

How the data were processed

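Per the labels' protocols, RNA of SW480 cells was isolated with Trizol and sequenced on an Illumina HiSeq X platform. The authors deposited 1 table of FPKM with a row for each Ensembl gene. Tools in the submitters' processing notes are StringTie 1.3.4d, HISAT2 2.1.0 and fastp, and the build there is GRCh37 (hg19), with no roles given. The labels list 15 samples, 6 of them for the 3 PINT shRNA1 RNA numbers, and the table has 1 column for each number, so these columns were mapped to the group only. Another 6 value columns were not used. GENCODE 29 and RefSeq GRCh38.p14, of another build, served for exon overlap, gene order and promoter sequences.

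Values were taken as log2(FPKM + 0.5). Genes that reached 0.5 FPKM in 3 or more of the 12 libraries, 17214 in all, were fitted with limma 3.58.1 in R 4.3.3, with 1 mean per group, an intensity trend and 5 two-sided contrasts, each Benjamini-Hochberg adjusted over all genes and called at an adjusted p below 0.05. The fit was tested on simulated data. There were 23 alternatives per contrast (22 for the interaction): median, quantile and total scaling, a filter of 1 FPKM or none, pseudocounts of 0.1 and 1, no trend, robust moderation, a replicate block, only the groups compared, and leaving out each library. The members and lists were chosen with earlier results of these data known. The values of 1 member are not reported here, and counts and sums include it. By rule, every other tested member is named with its group means, every called member with all libraries, and up to 4 genes of each other list by smallest p. Beyond that rule, further called genes are named from the TALE, MLL and flanking lists. FPKM holds no counts, so no counting error is given. Identical library pairs numbered 0.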

Additional observations from a re-analysis of the deposited data

Results flagged for a closer look

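The LPS response of HOXB8 and of HOXC5 went in opposite directions without and with the hairpin label: every LPS library was below every Control library, and every PINT shRNA1+LPS library was above every PINT shRNA1 library. For HOXB8 the difference of the responses, tested as the interaction, was 0.26 ± 0.0737 (limma, adjusted p = 0.363), and for HOXC5 it was 0.85 ± 0.264 (limma, adjusted p = 0.449), so neither passed the adjusted threshold. The background for the interaction was 0.128% of all genes called. Neither HOXB8 nor HOXC5 was called in LPS against Control or in PINT shRNA1+LPS against PINT shRNA1. How many of all genes have groups apart in this way was not counted. For HOXC5 the highest LPS library, at 0.616 FPKM, lay just below the lowest Control library, at 0.627.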

How the results depend on the processing

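Of 31 calls of members, 20 held under every alternative run. Over 709 alternative values of called members, 634 stayed called, 75 missed the threshold and 0 reversed. The count of 2 members called between LPS and Control became 1 with median scaling and with no filter. It became 0 with quantile normalization, the replicate block and a fit of only the groups compared, and 0 to 2 when each library was left out. The members counted were not the same in every fit. The cause was not tested. Leaving out each library gave 8 to 14 members called in PINT shRNA1 against Control, 13 to 18 in PINT shRNA1+LPS against LPS, and 0 in the other comparisons. The HOXB sum in PINT shRNA1 was 285.3 FPKM with median scaling.

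Replicate numbers were not shown to pair the libraries: deviations from group means of same-numbered libraries correlated at -0.0476 to 0.0569, those of other pairs at -0.0582 to 0.0463. With the replicate block, 0, 11 and 15 members were called in LPS against Control, PINT shRNA1 against Control and PINT shRNA1+LPS against LPS. Among all genes, limma called 475 between LPS and Control, 271 higher and 204 lower, which became 437 and 131 with median scaling, 211 and 100 with the replicate block, and 108 and 21 with only the groups compared. With no filter, the other comparisons drew on 40562 genes and called 10.1% and 10.8% in the hairpin comparisons. Absolute depth is unknown, and low members such as HOXC12 cannot be told from 0. HOXC12 was highest in PINT shRNA1+LPS, the group with the highest estimated relative depth.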
